A study of Mus musculus with 28 samples.

Results

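The cytochrome P450 genes of mouse families Cyp2 and Cyp3 were followed in the liver and kidney of mice gavaged with nicotinamide mononucleotide (NMN, a precursor of NAD+) or with water. The members were all protein-coding genes whose symbol is Cyp2 or Cyp3 followed by a subfamily letter and a number, except Cyp2d9 and the Cyp2c genes 29, 37, 38, 39, 40, 50, 54, 67, 68 and 69. They were 44 of the 54446 genes counted, in subfamilies Cyp2a (4 genes), Cyp2b (5), Cyp2c (5), Cyp2d (7), Cyp2j (8) and Cyp3a (7), with 1 gene each in Cyp2e, Cyp2f, Cyp2g, Cyp2r, Cyp2s, Cyp2t, Cyp2u and Cyp2w. All animals were male mice of 8 weeks, labelled C57BL/6 and named C57BL6J in the study's methods, with no transgene or deletion named, and all were gavaged for 7 days. One schedule gave NMN at 1340 mg/kg/d, and its NMN and water groups held 4 libraries per organ. The other gave 2680 mg/kg/d in 2 gavages a day, with its own water group, and its groups held 3 libraries per organ. The number of gavages and the daily dose therefore changed together and cannot be told apart. In all there were 28 polyA RNA libraries in 8 groups, with 12688324 to 33872983 reads counted on genes. The labels number the libraries of a group without stating what each number stands for, so p-values measure the spread between these libraries.

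Microsomal P450 enzymes are haem proteins of the endoplasmic reticulum that insert oxygen into drugs, steroids, bile acids, fatty acids and vitamins. They take electrons from NADPH through cytochrome P450 oxidoreductase, encoded by Por, and some also through cytochrome b5. In the liver many of them are controlled by the xenobiotic receptors PXR (Nr1i2) and CAR (Nr1i3), by growth hormone pulses and by the position of the hepatocyte in the lobule, while in the kidney they are found mainly in the proximal tubule, where Cyp2j and Cyp2c enzymes act on arachidonic acid.

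Several members are near-identical copies, which limits how far their reads can be told apart. Windows of 50 bases from the longest coding transcript of each member were looked up in all other annotated transcripts. For 21 of the 44 members over 10% of the windows also occurred in another gene, and for 8 members none did. The closest pair with high counts was Cyp2a4, a testosterone hydroxylase gene, and Cyp2a5, the coumarin hydroxylase gene. Their coding sequences are each 1485 bases long and differ at 23 bases, an identity of 98.5%. The stretch below, bases 596 to 655 of the coding sequence, holds 4 of these differences and is the densest, and is shown because only reads over such bases separate the genes. It lies across exons 4 and 5 of 9 on the plus strand of GRCm38, at chr7:26309030-26310706 for Cyp2a4 and chr7:26837193-26838868 for Cyp2a5, with an intron inside each interval. Capitals mark the bases that differ.
Cyp2a4: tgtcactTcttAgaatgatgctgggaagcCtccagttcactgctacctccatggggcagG
Cyp2a5: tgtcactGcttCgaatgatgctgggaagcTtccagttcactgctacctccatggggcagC
Of the windows of Cyp2a4, 38.8% also occurred in another gene, and of those of Cyp2a5 40.8%. Reads that aligned to more than 1 place were left out as not unique, so both genes may have lost counts. How many reads were lost or misplaced was not tested. The share of windows also found in another gene was 40.5% for Cyp2d10, 27.5% for Cyp2a12 (its copy is Cyp2a22), 26.8% for Cyp3a25 (Cyp3a59), 24.1% for Cyp2d40 and 14.8% for Cyp3a11. It was 6.14% for Cyp2d22 and 1.13% for Cyp2c55. Cyp2f2 and Cyp2u1 overlap antisense genes over 13.5% and 10.5% of their exon length, and the counting ignored strand.

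Some libraries stood apart from the others before any comparison. NMN liver replicate 4 of the 1340 mg/kg/d schedule had 12.77% of reads outside annotated exons, against 7.44% or less in the other 13 liver libraries. All 8 livers of that schedule held the kidney transcript Kap at 23.8 to 36.7 CPM (reads of the gene scaled to the library's total after edgeR's TMM factor was applied to that total). In the livers of the 2680 mg/kg/d schedule Kap was at 0.515, 6.12 and 1.13 CPM with water and at 21.3, 0.718 and 0.789 CPM with NMN, so NMN liver replicate 1 was the only NMN library of that schedule with a level of this kind. The 5 proximal tubule markers, of which Kap was the most abundant, summed to 29.9 CPM in that library and to 9.10 CPM or less in the other 5. The albumin transcript, in turn, stood at 75.3 to 121.9 CPM in the 8 kidneys at 1340 mg/kg/d and at 8.24 to 16.9 CPM in the 6 at 2680 mg/kg/d. Mitochondrial transcripts took 8.92% to 10.6% of the counts in the former kidneys and 19.8% to 21.6% in the latter. The labelled tissues otherwise matched their markers, since albumin was at 62170 CPM or more in every liver library and Kap at 12760 CPM or more in every kidney library.

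Levels were compared between genes as CPM per kilobase of exon. In the livers of water-gavaged mice Cyp2e1, the ethanol- and paracetamol-oxidising P450 of pericentral hepatocytes, was far above the others, with means of 3482 and 4392 CPM per kilobase at the 1340 and 2680 mg/kg/d schedules. It made up 48.6% and 51.1% of the summed level of all 44 members. Below it came Cyp2d10 (590 and 594 CPM per kilobase), Cyp2f2 (568 and 653) and Cyp2d26 (482 and 661), of which Cyp2d10 was the highest at the 1340 and Cyp2d26 at the 2680 mg/kg/d schedule. They were followed by Cyp2c70, the gene of muricholic acid synthesis (430 and 433), and Cyp3a11, the main hepatic Cyp3a gene (330 and 344). The place of Cyp3a11 depends on the length used, since its exons span 5093 bases and its longest coding transcript 2344 bases. In the kidney Cyp2e1 was also the highest (752 and 993 CPM per kilobase), followed closely by Cyp2j5, an arachidonic acid epoxygenase (695 and 743), and Cyp2a4 (178 and 229). Cyp2j5 was higher per kilobase in kidney than in liver, where it stood at 238 and 286.

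The genes separated by organ to different degrees. Of the 44 members, 18 passed the filter on low counts in both organs, 9 in the liver only, 5 in the kidney only and 12 in neither, among them Cyp2b13, Cyp2c65, Cyp3a16 and Cyp3a44. Cyp2c66 and Cyp2w1, which passed in no organ, had no read in any of the 28 libraries. Mean Cyp2a4 in the livers of water mice was 0.268% and 0.101% of its kidney level at the 1340 and 2680 mg/kg/d schedules, and Cyp2j11 0.243% and 0.00768%. Mean Cyp3a11 in the kidneys of water mice was 0.117% and 0.00657% of its liver level, and Cyp2d10 0.115% and 0.0041%. Albumin gave 0.117% and 0.00875% in the same kidneys and Kap 0.118% and 0.0122% in the same livers. The low values of Cyp3a11 and Cyp2d10 in kidney and of Cyp2j11 in liver were thus lower at the schedule where the markers of the other organ were lower. Cyp2s1 and Cyp2d12 in liver were also lower there, by a smaller factor than Kap. They were at 1.54% and 1.04% and at 2.05% and 1.43% of their kidney levels. Cyp2f2 in kidney was not lower there, at 0.26% and 0.298% of its liver level. The part of the other organ's transcripts in these values was not tested.

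**Figure D1:**
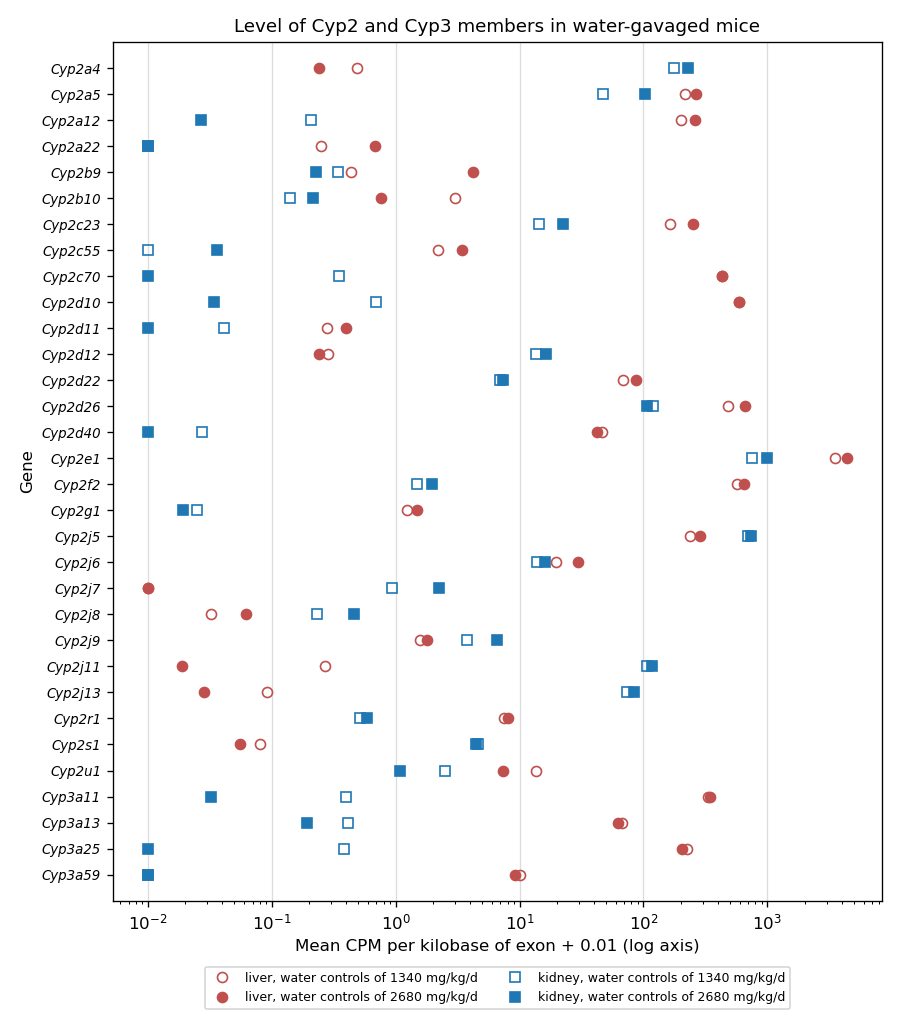
Mean level of each member that passed the count filter in a comparison, as CPM per kilobase of exon plus 0.01 on a log axis, in water-gavaged mice. Circles are liver and squares kidney, open for the 1340 mg/kg/d schedule (n = 4 libraries) and filled for the 2680 mg/kg/d schedule (n = 3). Cyp2e1 lies highest in both organs, while Cyp2a4, Cyp2j11 and Cyp2j13 lie far higher in kidney and Cyp3a11, Cyp2d10 and Cyp2c70 far higher in liver.

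The question of the main comparison was which of these genes differ between NMN and water livers at each schedule. In the liver at 2680 mg/kg/d, 6 members fell and 1 rose in edgeR's quasi-likelihood model, with calls made at an adjusted p under 0.05. Cyp3a11, Cyp2d22, Cyp2d40, Cyp2a12, Cyp2c55 and Cyp2f2 fell, and Cyp3a25 rose. These 7 were 25.9% of the 27 members tested. Over all 12477 genes tested in that comparison 7.08% passed the same threshold, 3.05% upwards and 4.03% downwards. Both counts depended on single libraries, since leaving out each in turn gave 1 to 5 called members and 211 to 1308 called genes. Of the 27 members 21 were lower and 6 higher with NMN, and their median log2 fold change was -0.31, beside 0.0045 over all genes tested. The hepatocyte markers moved with them. Of these 5 genes, with Alb (albumin) the most abundant and none at 0, 4 were lower with NMN and 1 was higher, and the median log2 fold change was also -0.31. Their summed level was 153000, 144900 and 138300 CPM in the water livers and 104000, 115800 and 117600 CPM in the NMN livers, without overlap. The share of reads outside annotated exons also separated these groups, at 3.62%, 3.27% and 3.47% in the water livers and 5.06%, 3.90% and 4.21% in the NMN livers. The part of either in the members' values was not tested. For 14 members (51.9%) the NMN and water libraries did not overlap, 3 with NMN above and 11 with NMN below, against 29.8% of all genes tested, 13.8% above and 16% below. Members that were low in all groups did not pass the filter, so these shares describe the 27 tested and not all 44. Among the 14, Cyp2b9 and Cyp2a22 passed the filter through their water libraries and Cyp2a4 through its NMN libraries. Their gaps were thus partly set by the filter, which was applied to all genes alike. RNA was taken from whole organ, so fewer cells of a type and less RNA per cell cannot be told apart.

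**Figure D2:**
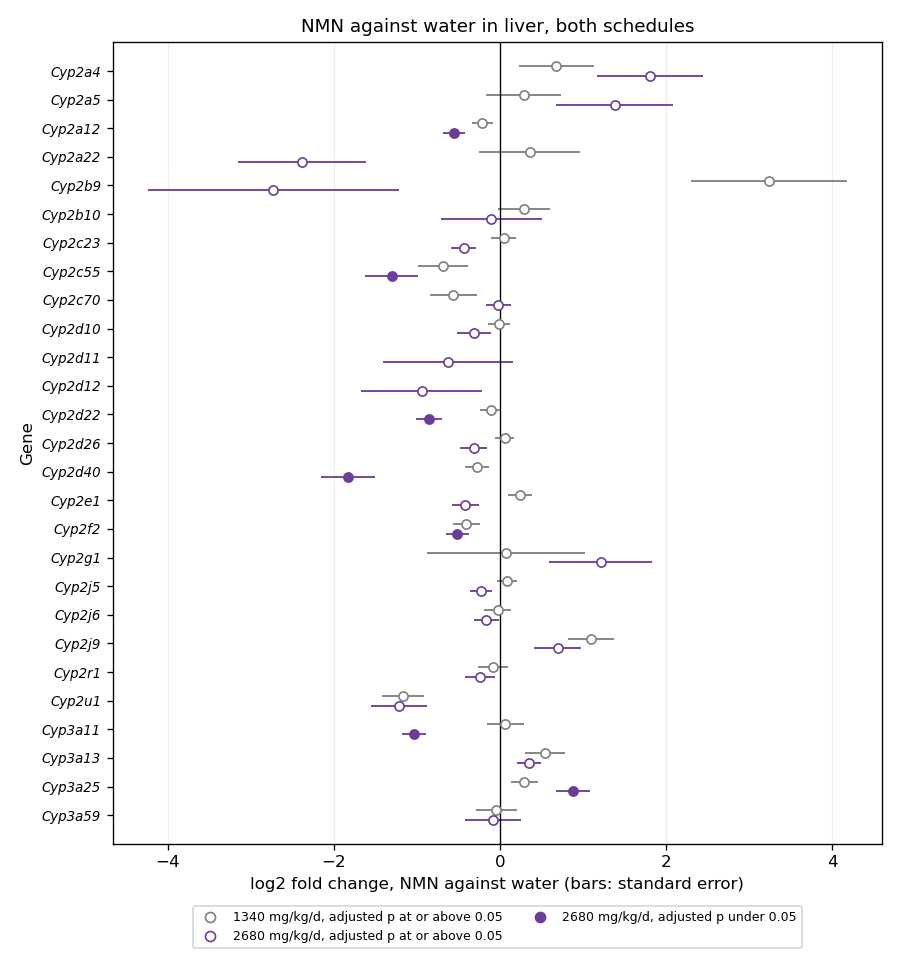
Log2 fold change of NMN against water in liver for each tested member, with its standard error, at 1340 mg/kg/d (grey, 4 against 4 libraries) and 2680 mg/kg/d (purple, 3 against 3). Filled points passed an adjusted p under 0.05 in edgeR. No grey point is filled, and of the 7 filled purple points 6 lie left of 0 and Cyp3a25 lies right of it.

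The Cyp3a genes encode the most versatile drug and steroid oxidases of the liver. Cyp3a11, the classic PXR-induced member, stood at 1704, 1692 and 1863 CPM in the 3 water livers of the 2680 mg/kg/d schedule and at 932, 709 and 923 CPM in the 3 NMN livers. Every NMN library was below every water library, with a wide gap between the groups. The log2 fold change was -1.04 (SE, the standard error, 0.14, adjusted p = 0.00317 from edgeR), the smallest adjusted p among the members, and Cyp3a11 was the only member called in all 6 fits that left out 1 library, with log2 fold changes from -1.11 to -0.92. It was also the only member with an adjusted p under 0.01 and a fold change under 0.5, a rule that 1.08% of all genes tested met in either direction. Cyp3a25, another hepatic Cyp3a gene, went the other way. It stood at 396, 446 and 434 CPM with water and at 927, 511 and 916 CPM with NMN. NMN replicate 2 was close to the water libraries and the other 2 were far above them. The log2 fold change was 0.88 (SE 0.21, adjusted p = 0.0313 from edgeR), and the gene stayed called in only 1 of the 6 fits that left out a library, the one without NMN replicate 2. Cyp3a13 was also higher in every NMN library, with a log2 fold change of 0.35 (adjusted p = 0.172), and Cyp3a59 differed by -0.09 (adjusted p = 0.907). Cyp3a16 and Cyp3a57 were at or near 0 in all livers, and Cyp3a44 was at 1.54 CPM or less.

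Among the Cyp2d genes, which include the mouse relatives of the human drug-metabolising CYP2D6, all 6 tested members had lower means with NMN at 2680 mg/kg/d and 2 fell. Of the 6, Cyp2d11 and Cyp2d12 were at 1.303 CPM or less in every liver of this schedule, with overlapping groups. Cyp2d22 stood at 318, 378 and 322 CPM with water and at 153, 208 and 203 CPM with NMN, a log2 fold change of -0.85 (SE 0.16, adjusted p = 0.0121 from edgeR). Cyp2d40 showed the greatest change among the 7 genes called. It stood at 98.2, 74.7 and 56.8 CPM with water and at 11.8, 27.0 and 26.0 CPM with NMN. The lowest value came from NMN replicate 1, the library with kidney transcripts. The log2 fold change was -1.82 (SE 0.33, adjusted p = 0.0170 from edgeR), and without that library it was -1.54. Both Cyp2d22 and Cyp2d40 stayed called in 5 of the 6 fits that left out a library, and lost the call without water replicate 2. A fit with replicate number as a block kept the call of Cyp2d22 and lost that of Cyp2d40. Cyp2d26, the highest Cyp2d gene in liver at this schedule, was at 1147, 1297 and 1109 CPM with water and at 731, 1031 and 1095 CPM with NMN. Its groups did not overlap, though NMN replicate 3 came close to the water libraries, and the log2 fold change of -0.31 did not pass the test (SE 0.16, adjusted p = 0.262). Cyp2d10, the highest at the other schedule, was at 968, 1101 and 870 CPM with water and at 538, 972 and 856 CPM with NMN. The groups overlapped, and the log2 fold change of -0.31 did not pass the test (SE 0.20, adjusted p = 0.368).

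Of the 4 Cyp2a genes tested 1 fell and none rose. Cyp2a12, a steroid hydroxylase gene, stood at 874, 991 and 814 CPM with water and at 574, 632 and 623 CPM with NMN. Every NMN library was below every water library, with a log2 fold change of -0.55 (SE 0.13, adjusted p = 0.0309 from edgeR). It stayed called in 2 of the 6 fits that left out a library, those without water replicate 3 and without NMN replicate 2. Cyp2a5 was the highest Cyp2a gene in liver by level per kilobase. That order depends on the length used, since the exons of Cyp2a12 span 3457 bases and its longest coding transcript 1681 bases. Cyp2a5 was at 225, 840 and 576 CPM with water and at 591, 1245 and 2443 CPM with NMN. The groups overlapped and spread over a wide range, and the log2 fold change of 1.38 did not pass the test (SE 0.71, adjusted p = 0.305). Cyp2a4 and Cyp2a22, at 2.94 CPM or less in every liver of this schedule, had log2 fold changes of 1.81 (adjusted p = 0.111) and -2.38 (adjusted p = 0.0907). The highest liver value of Cyp2a4 in this schedule, 2.37 CPM, came from NMN replicate 1, and its kidney levels were 338.5 CPM or more, so the part of kidney transcripts in this difference was not tested.

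In subfamily Cyp2c, Cyp2c55, an inducible gene of arachidonic acid hydroxylation, stood at 6.65, 5.71 and 8.06 CPM with water and at 2.27, 2.06 and 3.94 CPM with NMN. The groups did not overlap at this low level, and the log2 fold change was -1.30 (SE 0.32, adjusted p = 0.0346 from edgeR). The gene stayed called only without NMN replicate 3. Cyp2c70 was at 974, 776 and 822 CPM with water and at 1005, 752 and 782 CPM with NMN, with a log2 fold change of -0.02 (SE 0.15, adjusted p = 0.956). Cyp2c23 was lower in every NMN library, with a log2 fold change of -0.44 (adjusted p = 0.0993).

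Cyp2f2, a periportal hepatocyte gene known for naphthalene oxidation in the airway, stood at 1215, 1421 and 1328 CPM with water and at 1064, 861 and 858 CPM with NMN. Its log2 fold change was -0.51 (SE 0.14, adjusted p = 0.0479 from edgeR), close to the threshold. Of the fits that left out a library, only the one without NMN replicate 1 called it. The call was also lost with other size factors and with replicate number as a block. Of its sequence windows, 10% also occurred in another gene. Cyp2e1 was at 7483, 10800 and 10150 CPM with water and at 6223, 6715 and 8351 CPM with NMN. The groups overlapped at their edges, and the log2 fold change of -0.42 did not pass the test (SE 0.16, adjusted p = 0.147).

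The remaining subfamilies were mostly low and variable in liver. Cyp2b10, the classic target of CAR, was at 1.70, 2.26 and 0.8293 CPM with water and at 0.690, 0.861 and 2.94 CPM with NMN. The groups overlapped, with a log2 fold change of -0.10 (SE 0.61, adjusted p = 0.939), and its sign changed with the library left out. Cyp2b9, a gene with female-predominant expression in mouse liver, was at 4.59, 12.9 and 6.16 CPM with water and at 0, 0 and 3.63 CPM with NMN (adjusted p = 0.339). Cyp2u1, a fatty acid hydroxylase gene, was at 34.5, 47.1 and 34.1 CPM with water and at 27.0, 11.8 and 11.1 CPM with NMN. Its groups did not overlap, but the log2 fold change of -1.21 missed the threshold (SE 0.34, adjusted p = 0.0660). DESeq2, the fit without a count filter, the replicate block and the fit without NMN replicate 1 called it, and the other alternatives did not. Cyp2j5 was at 612, 688 and 715 CPM with water and at 624, 535 and 559 CPM with NMN, and Cyp2r1, a microsomal vitamin D hydroxylase gene, at 17.1, 15.0 and 19.2 CPM with water and 14.6, 13.3 and 15.4 CPM with NMN. Neither differed beyond its spread (adjusted p = 0.306 and 0.437). Cyp2g1, best known from the olfactory mucosa, was at 1.91, 5.45 and 2.13 CPM with water and at 2.66, 5.89 and 13.6 CPM with NMN (adjusted p = 0.275).

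**Figure D3:**
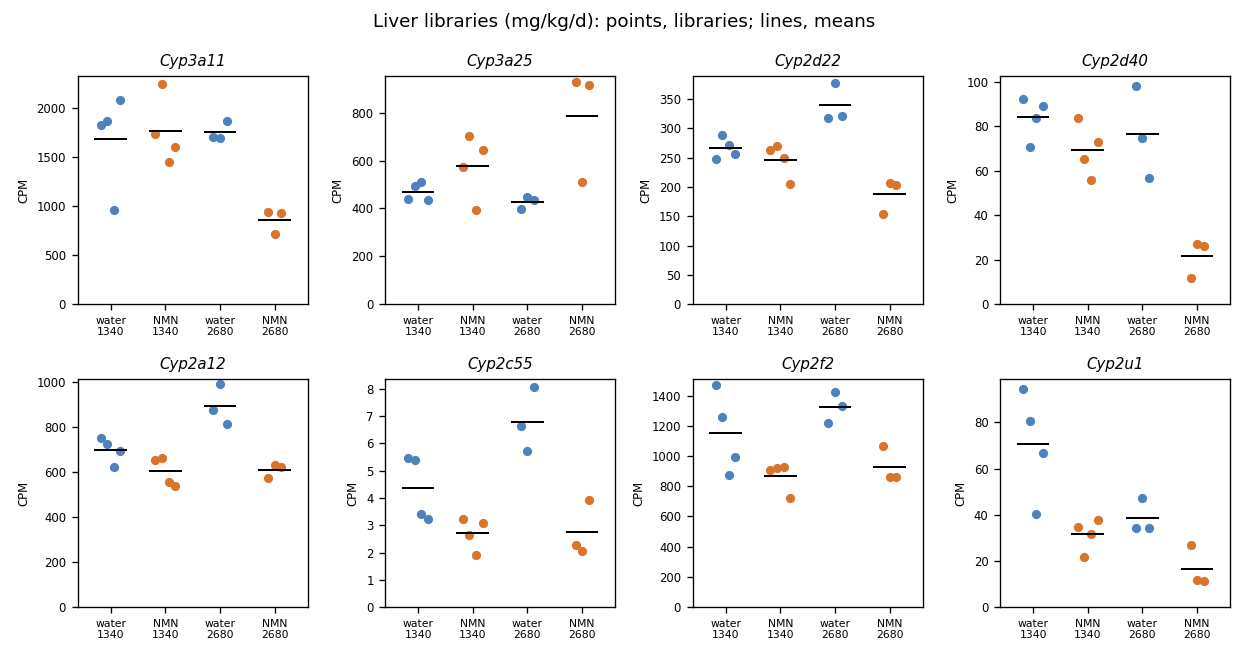
CPM of the 7 called members and Cyp2u1 in each liver library (points) with group means (lines), for water (blue) and NMN (orange) at 1340 and 2680 mg/kg/d. At 2680 mg/kg/d the NMN points of Cyp3a11 (709 to 932 CPM) lie well below the water points (1692 to 1863 CPM), while at 1340 mg/kg/d the groups overlap.

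At 1340 mg/kg/d no member passed an adjusted p under 0.05 in the liver in edgeR. The comparison called few genes of any kind, 2 of 12449 (0.0161%). Of the 25 members tested, 6 had an unadjusted p under 0.05 (6.86% of all genes tested did), and DESeq2 called 2, Cyp2j9 and Cyp2u1. The median log2 fold change of the members was 0.06, with 14 higher and 11 lower, beside -0.0027 over all genes. In 2 members (8%, against 3.53% of all genes, 1.78% above and 1.74% below) the groups did not overlap, both with NMN below. One was Cyp2u1, at 94.6, 80.5, 40.2 and 66.9 CPM with water and 34.8, 21.6, 31.6 and 37.8 CPM with NMN, with a log2 fold change of -1.17 (SE 0.25, adjusted p = 0.205). The other was Cyp2c55, at 5.46, 5.40, 3.40 and 3.24 CPM with water and 3.23, 2.64, 1.93 and 3.09 CPM with NMN, with a log2 fold change of -0.68 (SE 0.30, adjusted p = 0.693).

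The members called at 2680 mg/kg/d gave overlapping groups at 1340 mg/kg/d, apart from Cyp2c55. Cyp3a11 was at 1825, 1860, 957 and 2075 CPM with water and 1732, 2244, 1449 and 1601 CPM with NMN, a log2 fold change of 0.06 (SE 0.22, adjusted p = 0.973). Water replicate 3 was the lowest library and far from the rest of its group. Cyp3a25 was at 441, 494, 511 and 435 CPM with water and 572, 702, 392 and 645 CPM with NMN (log2 fold change 0.30, adjusted p = 0.802). NMN replicate 3 was the lowest of all 8 libraries and the other 3 the highest. Cyp2d22 was at 247, 289, 271 and 257 CPM with water and 264, 270, 248.8 and 205 CPM with NMN (log2 fold change -0.11, adjusted p = 0.914). Cyp2d40 was at 92.2, 70.7, 83.7 and 89.1 CPM with water and 83.6, 65.2, 55.9 and 72.7 CPM with NMN (log2 fold change -0.28, adjusted p = 0.797). Cyp2d22 thus overlapped almost fully, and Cyp2d40 leaned lower without clear separation. Cyp2a12 was at 750, 724, 622 and 692 CPM with water and 653, 664, 555 and 539 CPM with NMN (log2 fold change -0.21, adjusted p = 0.805). Cyp2f2 was at 1472, 1258, 876 and 995 CPM with water and 910, 920, 928 and 724 CPM with NMN (log2 fold change -0.40, adjusted p = 0.670). Its lowest library, NMN replicate 4, was the one with the most reads outside exons.

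The other leading members showed similarly wide groups at 1340 mg/kg/d. Cyp2e1 was at 5659, 7831, 8450 and 8115 CPM with water and 9974, 9168, 7970 and 8471 CPM with NMN, a log2 fold change of 0.24 (adjusted p = 0.805). Water replicate 1 was the lowest and NMN replicate 1 the highest. Cyp2a5 was at 277, 381, 582 and 540 CPM with water and 499, 706, 181 and 785 CPM with NMN (adjusted p = 0.936). Cyp2b10 was at 4.83, 7.73, 8.42 and 4.46 CPM with water and 4.81, 8.66, 5.65 and 12.1 CPM with NMN (adjusted p = 0.908). The groups of both genes overlapped throughout. Cyp2b9 was at 0.158, 0.333, 1.70 and 1.01 CPM with water and 1.05, 6.63, 18.4 and 4.60 CPM with NMN (adjusted p = 0.499), in the opposite direction to the 2680 mg/kg/d schedule. Cyp2c70 was at 1334, 928, 578 and 570 CPM with water and 736, 559, 612 and 404 CPM with NMN (adjusted p = 0.785). Both spread widely, and Cyp2c70 was highest in water replicate 1. Cyp2d10 was at 917, 1069, 860 and 1042 CPM with water and 869, 1083, 998 and 910 CPM with NMN (adjusted p = 0.996). Cyp2j5 was at 519, 546, 632 and 534 CPM with water and 598, 586, 633 and 553 CPM with NMN (adjusted p = 0.925). The groups of both genes overlapped, although every NMN library of Cyp2j5 was above 3 of the 4 water libraries. Cyp2d26 also overlapped, at 867, 904, 794 and 892 CPM with water and 897, 1002, 810 and 888 CPM with NMN (adjusted p = 0.952). Cyp2r1 was at 12.4, 15.5, 18.4 and 17.1 CPM with water and 15.8, 17.6, 13.9 and 12.6 CPM with NMN (adjusted p = 0.957). Cyp2g1 was at 0, 2.73, 3.75 and 4.12 CPM with water and 2.93, 5.83, 0.449 and 1.961 CPM with NMN (adjusted p = 0.996).

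An interaction term over the 14 liver libraries tested whether the NMN effect differed by schedule. The study's methods name more than one sequencer without saying which library ran on which, so in every comparison between schedules, levels and marker shares included, the schedule and a possible change of sequencer cannot be told apart. No member passed an adjusted p under 0.05 in edgeR, where 0.0746% of 13412 genes did. Of the 28 members tested, 8 had an unadjusted p under 0.05 (8.6% of all genes did), and DESeq2 called 1, Cyp2d40. Cyp2d40 had the smallest p in edgeR too, with a difference in log2 fold change of -1.54 (SE 0.35, adjusted p = 0.114). The difference was -0.73 for Cyp2d22 (SE 0.20, adjusted p = 0.209) and -1.09 for Cyp3a11 (SE 0.30, adjusted p = 0.231). It was 0.59 for Cyp3a25 (adjusted p = 0.567), -0.33 for Cyp2a12 (adjusted p = 0.637), -0.61 for Cyp2c55 (adjusted p = 0.760) and -0.10 for Cyp2f2 (adjusted p = 0.963). In edgeR none of the 7 members called at 2680 mg/kg/d was thus shown to differ from its effect at 1340 mg/kg/d, and in DESeq2 Cyp2d40 was.

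The promoters of the members were searched for letters that liver factors are known to bind, in RefSeq windows (GRCm38.p6) from 250 bases before to 50 after each start, on both strands. A window was found for 37 of the 44 members. The letters CAAAGTCCA are one form of the site of HNF4A, a hepatocyte nuclear receptor. They stood in 4 of the 37 member genes (10.8%), or 4 of their 39 windows, and in 0.475% of all 32851 promoter windows. These 4 stretches are shown because they include Cyp3a11, the most firmly called member. Capitals mark the letters, and all lie within about 120 bases before the start.
Cyp3a11, chr5:145879944-145879974, minus strand: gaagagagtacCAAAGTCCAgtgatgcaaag
Cyp3a16, chr5:145469803-145469833, minus strand: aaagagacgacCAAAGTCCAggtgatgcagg
Cyp2c65, chr19:39060879-39060909, plus strand: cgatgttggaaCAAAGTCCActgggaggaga
Cyp2c70, chr19:40187331-40187361, minus strand: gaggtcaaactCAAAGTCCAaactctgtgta
Of these 4 genes Cyp3a11 fell with NMN at 2680 mg/kg/d, Cyp2c70 did not pass the test, and the other 2 were at or near 0. To set the called Cyp3a gene that fell beside the one that rose, the 150 bases before each start are given, with the same letters in capitals. No exact match stands in that of Cyp3a25, and other forms of the HNF4A site were not searched. The part of these letters in the NMN differences was not tested.
Cyp3a11, chr5:145879855-145880004, minus strand: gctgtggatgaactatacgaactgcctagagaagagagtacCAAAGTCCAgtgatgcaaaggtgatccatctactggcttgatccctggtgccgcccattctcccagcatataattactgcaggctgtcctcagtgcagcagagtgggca
Cyp3a25, chr5:146009619-146009768, minus strand: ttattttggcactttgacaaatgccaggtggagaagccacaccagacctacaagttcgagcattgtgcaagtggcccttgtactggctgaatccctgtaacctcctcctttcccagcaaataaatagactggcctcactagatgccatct
The letters CCAAT stood in 18 member genes. Among these were the called Cyp3a25, Cyp2a12, Cyp2c55 and Cyp2d40, and also Cyp2e1, Cyp2d10, Cyp2d26 and Cyp2b10, which did not pass the test. The called Cyp3a11 and Cyp2f2 lacked the letters, and for the called Cyp2d22 no window was found. By window the letters CCAAT stood in 19 of the 39 of members and in 37.4% of all. The STAT5 letters TTCNNNGAA stood in 2 member genes (Cyp2j11 and Cyp2j12, 8.3% of all windows) and the E-box CACGTG in 1 (Cyp2j6, 7.15%). The D-box TTATGTAA, the DR1 and DR4 direct repeats and the HNF1 motif stood in none of the windows of members, and in 0.938%, 0.0396%, 0.0152% and 0.00913% of all windows.

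The genes around the P450s were described from lists for the liver at 2680 mg/kg/d, where 3.05% of all 12477 genes tested rose and 4.03% fell, with a median log2 fold change of 0.0045. Of 21 transcription factors of P450 genes, 1 rose and 1 fell, and the median log2 fold change was 0.16. Nr1i3, encoding the xenobiotic receptor CAR, stood at 48.9, 58.6 and 47.2 CPM with water and at 116.2, 157 and 130 CPM with NMN. Every NMN library was far above every water library, with a log2 fold change of 1.38 (SE 0.16, adjusted p = 0.00141 from edgeR), called in all 6 fits that left out a library. Nr1i2, encoding PXR, was at 51.0, 57.7 and 55.8 CPM with water and 63.3, 72.4 and 59.1 CPM with NMN, a log2 fold change of 0.24 that did not pass the test (adjusted p = 0.327). Cebpa, a hepatocyte factor gene, fell by 0.59 in log2 units (SE 0.16, adjusted p = 0.0489), but only 1 of the 6 fits that left out a library called it.

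Of the 7 redox partners 1 rose and 1 fell. Por was at 129, 279 and 174 CPM with water and at 335, 431 and 538 CPM with NMN, a log2 fold change of 1.17 (SE 0.28, adjusted p = 0.0446 from edgeR), and it stayed called only without water replicate 2. Por was also low in water replicate 1 of the 1340 mg/kg/d schedule (136 CPM against 304 to 536 CPM in the other 7 livers). In both schedules the summed level of 8 clock-driven PAR bZIP and repressor genes was lowest in water liver replicate 1, at 195 and 208 CPM, where the other livers ran from 321 to 793 CPM, and the part of these genes in the Por difference was not tested. Cyb5r3, encoding cytochrome b5 reductase, fell by 0.78 in log2 units (SE 0.15, adjusted p = 0.0130), and was called in 4 of the 6 fits that left out a library, not without water replicate 2 or NMN replicate 3. Of 12 genes of haem synthesis and breakdown only Alad, of the second step of synthesis, passed the test. It fell by 1.11 in log2 units (SE 0.21, adjusted p = 0.0133), and the list's median was -0.16. The call was lost without water replicate 2.

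Of 13 tested targets of CAR and PXR outside the P450s, 4 rose and 2 fell, with a median log2 fold change of 0.76, where 3.05% of all genes tested rose and 4.03% fell. Gstm1, a glutathione transferase gene, rose by 0.91 in log2 units (adjusted p = 0.0235 from edgeR) and Abcc3, an export pump gene, by 1.14 (adjusted p = 0.0245), while the carboxylesterase gene Ces2a fell by 0.84 (adjusted p = 0.0123) and the aldehyde dehydrogenase gene Aldh1a7 by 0.75 (adjusted p = 0.0178). The list thus moved in both directions. Most of these calls depended on single libraries, since of the 6 fits that left one out Ces2a was called in 4, Abcc3 in 3, Gstm1 and Aldh1a7 in 2 each, and the other 2 genes that rose in 1 each. All 6 genes lost the call without water replicate 2 and without NMN replicate 3. The P450 members known for induction through CAR or PXR did not rise. Of those 3, Cyp3a11 and Cyp2c55 fell and Cyp2b10 did not pass the test. Among 13 other microsomal enzymes, Ephx1, the epoxide hydrolase gene, rose by 1.29 in log2 units (adjusted p = 0.0153) and Ces3a fell by 0.85 (adjusted p = 0.00618). Ces3a was called in all 6 such fits and Ephx1 in 3, losing the call without any one of the water libraries.

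**Figure D4:**
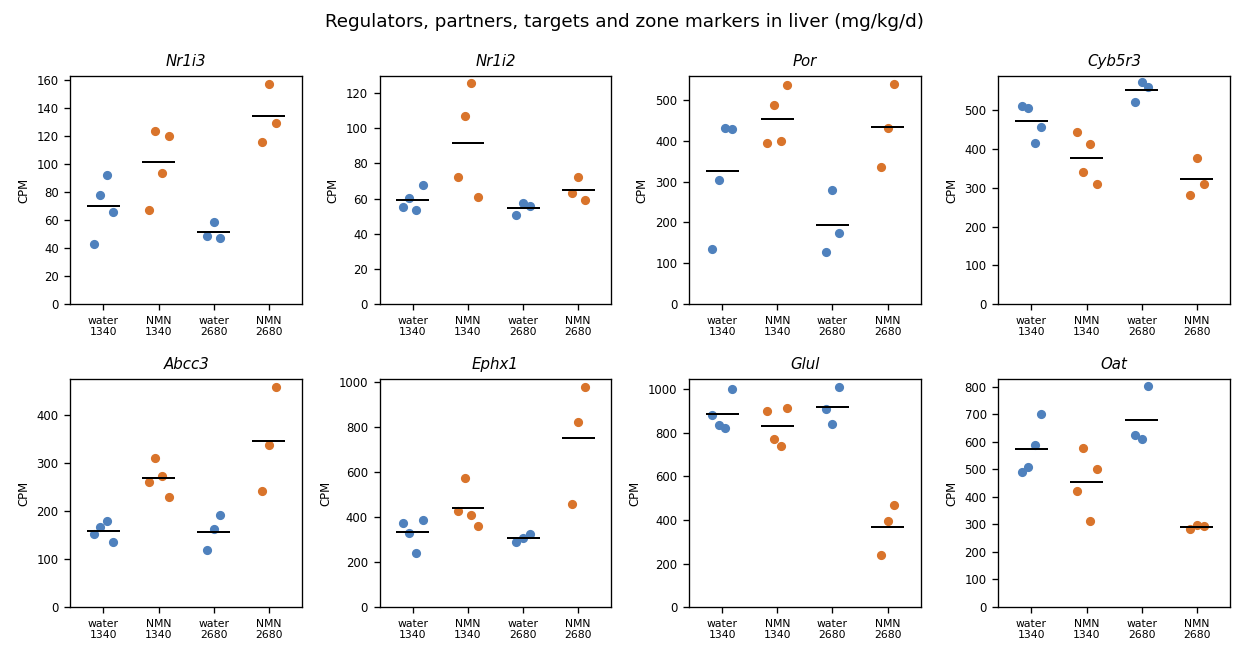
CPM in each liver library (points) with group means (lines), for water (blue) and NMN (orange) at both schedules, of the xenobiotic receptor genes Nr1i3 and Nr1i2, the redox partners Por and Cyb5r3, the CAR target Abcc3, the microsomal Ephx1 and the pericentral markers Glul and Oat. At 2680 mg/kg/d the NMN points of Nr1i3 (116.2 to 157 CPM) lie above and those of Glul (241 to 467 CPM) below all water points.

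The lobular position of hepatocytes bears on these genes, since Cyp2e1 and Cyp2a5 are pericentral and Cyp2f2 periportal. Of 14 other pericentral genes 13 were lower with NMN at 2680 mg/kg/d, 3 of them past the threshold, with a median log2 fold change of -0.65. Over all genes tested 6191 of 12477 were lower, and 4.03% fell past the threshold. Glul, encoding glutamine synthetase of the last hepatocytes around the central vein, stood at 909, 839 and 1009 CPM with water and at 241, 397 and 467 CPM with NMN (log2 fold change -1.32, standard error 0.22, adjusted p = 0.00831 from edgeR). Oat fell by 1.22 (adjusted p = 0.00143) and Lect2 by 1.48 (adjusted p = 0.00059), and all 3 stayed called in all 6 fits that left out a library. The summed level of the 14 genes was lowest, at 2484 CPM, in NMN replicate 1, the library with kidney transcripts, against 3846 and 4075 CPM in the other NMN livers and 4453 CPM or more in the water livers. Of 12 periportal genes 4 were higher and 8 lower with NMN, with a median of -0.0070. Past the threshold 1 of them rose, Hsd17b13 (log2 fold change 0.65, adjusted p = 0.0202), and none fell. Hsd17b13 was called in 2 of the 6 fits, those without NMN replicate 1 and without NMN replicate 2. The part of this zonal pattern in the members' values was not tested. Pericentral Cyp2e1 and Cyp2a5 had log2 fold changes of opposite sign, neither past the threshold, and periportal Cyp2f2 fell.

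Of 9 tested growth hormone signalling genes 2 fell, Igfals by 1.54 in log2 units (SE 0.18, adjusted p = 0.00123 from edgeR) and the receptor gene Ghr by 0.57 (SE 0.14, adjusted p = 0.0374), with a list median of -0.19. Ghr was called in 1 of the 6 fits that left out a library and Igfals in all 6. Of the 6 members with female-predominant expression in mouse liver, 3 were tested and none passed the threshold in edgeR. Of these 3, 1 had an unadjusted p under 0.05, as did 24.6% of all genes tested. Of 16 acute phase genes 1 rose, Orm2 (log2 fold change 1.28, adjusted p = 0.0239), and 1 fell, Apcs (-0.97), with a median of -0.40. Orm2 was called in 2 of the 6 fits, those without water replicate 1 and without NMN replicate 1, and Apcs in 5, not without NMN replicate 3. None of 8 PAR bZIP and clock repressor genes passed in edgeR, with 2 at an unadjusted p under 0.05, near the 24.6% of all genes tested. No tested marker of cholangiocytes, Kupffer cells, endothelium, stellate cells, neutrophils or lymphocytes passed in edgeR, and 1, of endothelium, had an unadjusted p under 0.05. Of the 5 hepatocyte markers, given above by their sum, Ttr fell by 0.97 and the other 4 did not pass. Alb was at 127900, 117100 and 116800 CPM with water and 86360, 95670 and 100500 CPM with NMN (log2 fold change -0.36, adjusted p = 0.0750). Cela1, on the exocrine pancreas list, fell by 2.17. In the livers at 1340 mg/kg/d, where 2 of 12449 genes passed, no gene of any of these lists did. An unadjusted p under 0.05 from edgeR was found for 6.86% of all genes tested. It was found for 8 of 21 transcription factors of P450 genes and 4 of 12 CAR and PXR targets. Among markers it was found for 3 of 4 of endothelium and 2 of 2 of neutrophils. The other lists held 0 to 3 such genes each. There Nr1i3, Por and Nr1i2 had log2 fold changes of 0.54 (adjusted p = 0.720), 0.48 (adjusted p = 0.8288) and 0.63 (adjusted p = 0.511).

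In the kidney no member passed the threshold at either schedule in edgeR. At 1340 mg/kg/d 0.12% of 14972 genes passed, and at 2680 mg/kg/d 0.4% of 15245 genes. Of the 20 members tested at 1340 mg/kg/d, 1 had an unadjusted p under 0.05 (8.94% of all genes did) and DESeq2 called none. Of the 21 tested at 2680 mg/kg/d, 3 had one (11.1% of all genes did), and DESeq2 called 1, Cyp2a4. The median log2 fold change of the members was 0.02 and 0.08 at the 2 schedules, beside 0.0011 and 0.0038 over all genes.

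The kidney's own leading members stayed close to their water levels. Cyp2e1 was at 1776, 1377, 1508 and 1830 CPM with water and 1800, 1149, 1284 and 1836 CPM with NMN at 1340 mg/kg/d. At 2680 mg/kg/d it was at 2099, 2142 and 2188 CPM with water and 2015, 2603 and 2428 CPM with NMN. Its groups overlapped at both schedules (adjusted p = 0.896 and 0.701). Cyp2j5 was at 1635, 1699, 1578 and 1606 CPM with water and 1729, 1689, 1457 and 1676 CPM with NMN at 1340 mg/kg/d. At 2680 mg/kg/d it was at 1587, 1791 and 1848 CPM with water and 1790, 2020 and 1785 CPM with NMN. Its log2 fold changes were 0.01 (SE 0.09) and 0.10 (SE 0.10).

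Cyp2a4 was at 354, 212, 319 and 351 CPM with water and 405, 403, 313 and 406 CPM with NMN at 1340 mg/kg/d, where the groups overlapped (log2 fold change 0.31, standard error 0.15, adjusted p = 0.564). At 2680 mg/kg/d it was at 338.5, 446 and 410.3 CPM with water and 643, 453 and 573 CPM with NMN. Every NMN library was above every water library, by a log2 fold change of 0.48 that did not pass the test (SE 0.14, adjusted p = 0.215). Its copy Cyp2a5 gave a log2 fold change of -0.51 there (adjusted p = 0.679). Cyp2s1, a P450 gene of epithelia, was at 22.4, 21.6 and 21.3 CPM with water and 25.3, 26.1 and 31.8 CPM with NMN at 2680 mg/kg/d, again without overlap (log2 fold change 0.35, standard error 0.11, adjusted p = 0.222). At 1340 mg/kg/d it was at 16.9, 25.4, 22.9 and 25.5 CPM with water and 24.4, 25.2, 21.2 and 26.1 CPM with NMN. Together with Cyp2r1, higher in every NMN library, and Cyp2c23, lower in every one, these were 4 members of 21 (19%) whose groups did not overlap at 2680 mg/kg/d, against 17.2% of all genes, 8.47% above and 8.69% below. At 1340 mg/kg/d there were 0 of 20, against 5.12%.

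Cyp2c23, an epoxygenase gene, was at 27.7, 28.3, 37.3 and 30.8 CPM with water and 24.9, 28.9, 39.02 and 29.6 CPM with NMN at 1340 mg/kg/d, and at 48.0, 47.0 and 51.0 CPM with water and 32.8, 43.6 and 43.4 CPM with NMN at 2680 mg/kg/d (log2 fold change -0.28, adjusted p = 0.351). Cyp2d26 was at 198, 211, 229 and 219 CPM with water and 160, 186, 219 and 173 CPM with NMN at 1340 mg/kg/d, and at 180, 200 and 199 CPM with water and 167, 171 and 194 CPM with NMN at 2680 mg/kg/d. Its log2 fold changes were -0.22 (adjusted p = 0.557) and -0.12 (adjusted p = 0.645). The 5 proximal tubule markers summed to 28370 CPM or more in the 4 water kidneys and 28010 CPM or less in the 4 NMN kidneys at 1340 mg/kg/d, and to 27700 CPM or more and 25700 CPM or less at 2680 mg/kg/d, with Kap the most abundant. Their part in the kidney values was not tested.

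The lower members of the kidney gave no call either. Cyp2u1 was at 13.7, 11.3, 15.2 and 11.6 CPM with water and 10.8, 10.2, 12.6 and 14.7 CPM with NMN at 1340 mg/kg/d, and at 6.62, 5.48 and 4.80 CPM with water and 6.43, 5.91 and 7.03 CPM with NMN at 2680 mg/kg/d. Its groups overlapped at both schedules, and the difference from its liver values was not tested. Cyp2f2 was at 2.34, 2.77, 2.93 and 3.92 CPM with water and 2.26, 2.37, 2.57 and 2.67 CPM with NMN at 1340 mg/kg/d, and at 3.52, 3.43 and 4.86 CPM with water and 3.78, 3.37 and 4.34 CPM with NMN at 2680 mg/kg/d. Unlike Cyp3a11, it was not lower in the kidneys with less albumin transcript. Cyp2r1 was at 0.668, 1.57, 1.11 and 0.899 CPM with water and 0.604, 1.33, 0.713 and 0.983 CPM with NMN at 1340 mg/kg/d, and at 0.893, 1.39 and 1.38 CPM with water and 1.47, 1.58 and 1.61 CPM with NMN at 2680 mg/kg/d. Cyp3a13, in water mice the highest Cyp3a gene of the kidney per kilobase, was at 1.27, 1.26, 1.17 and 1.09 CPM with water and 1.43, 1.85, 0.856 and 0.983 CPM with NMN at 1340 mg/kg/d, and at 0.420, 0.723 and 0.480 CPM with water and 0.799, 0.657 and 0.628 CPM with NMN at 2680 mg/kg/d. Cyp2r1 and Cyp3a13 were thus low in all kidney groups. In water kidneys at 1340 mg/kg/d Cyp3a13 was at 0.405 and Cyp3a11 at 0.385 CPM per kilobase, an order that depends on the exon length used. Cyp2b9 and Cyp2b10 were at 1.01 CPM or less in every kidney library. Cyp2b9 was at 0.267, 1.01, 0.456 and 0.770 CPM with water and 0.679, 0.370, 0.571 and 0.772 CPM with NMN at 1340 mg/kg/d, and at 0.630, 0.301 and 0.300 CPM with water and 0.547, 0.789 and 0.748 CPM with NMN at 2680 mg/kg/d. Cyp2b10 was at 0.134, 0.252, 0.391 and 0.321 CPM with water and 0, 0, 0 and 0.561 CPM with NMN at 1340 mg/kg/d, and at 0.577, 0.421 and 0.300 CPM with water and 0.547, 0.219 and 0.598 CPM with NMN at 2680 mg/kg/d. The groups of both genes overlapped at both schedules. Cyp3a11 was at 1.87, 1.82, 1.955 and 2.18 CPM with water and 1.36, 2.29, 2.92 and 2.46 CPM with NMN at 1340 mg/kg/d, and at 0.105, 0 and 0.240 CPM with water and 0.0420, 0.131 and 0.0299 CPM with NMN at 2680 mg/kg/d, low beside the liver in all.

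**Figure D5:**
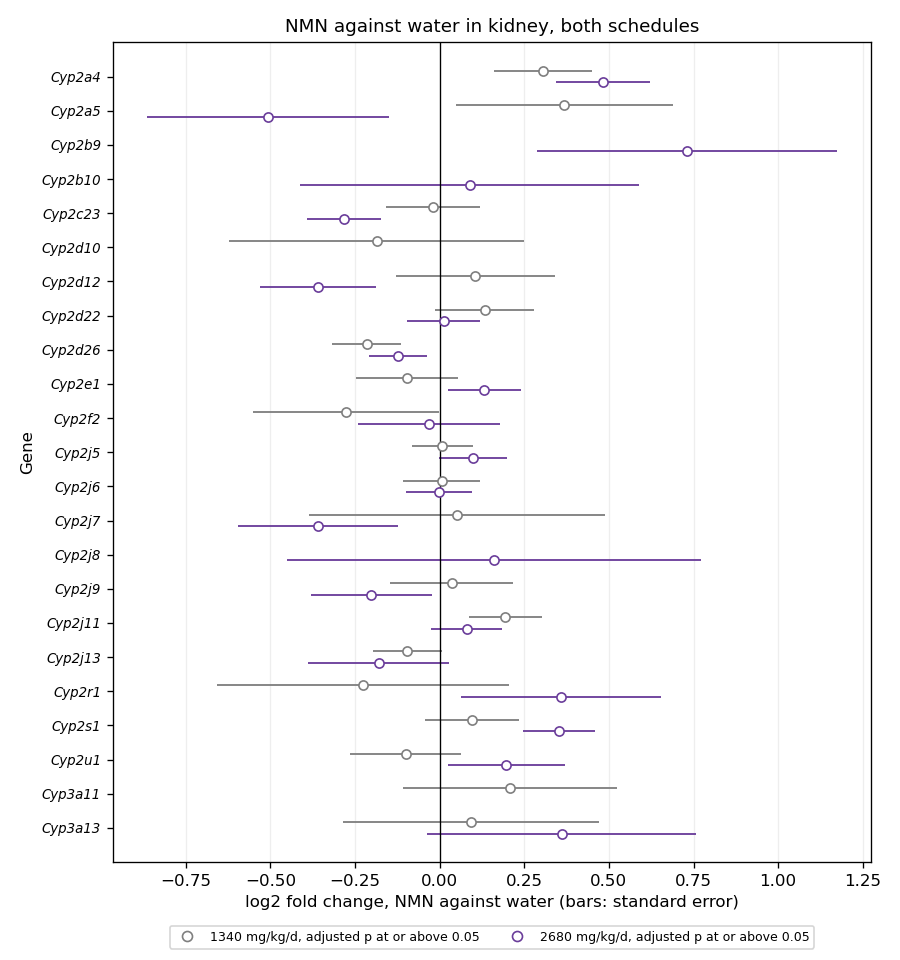
Log2 fold change of NMN against water in kidney for each tested member, with its standard error, at 1340 mg/kg/d (grey, 4 against 4 libraries) and 2680 mg/kg/d (purple, 3 against 3). All points are open, since no member passed an adjusted p under 0.05 in edgeR.

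The interaction over the 14 kidney libraries called no member in edgeR and 0.00625% of 15989 genes. Of 25 members tested, 1 had an unadjusted p under 0.05 (4.62% of all genes did), Cyp2a12 at under 1 CPM, and DESeq2 called none. Among the surrounding lists at 1340 mg/kg/d, Bhlhe40, a clock repressor gene, rose by 0.76 in log2 units (adjusted p = 0.0393 from edgeR), and so did Ugt1a1, by 3.37 (adjusted p = 0.0393), whose exons are largely shared within the Ugt1a locus, so that its count is uncertain. At 2680 mg/kg/d the fibrinogen gene Fgg rose by 1.03 (adjusted p = 0.00999). None of the 11 tested CAR and PXR targets passed there, but 9 were higher and 2 lower, with a median log2 fold change of 0.60. In 5 of them the groups did not overlap, all with NMN above, against 8.47% of all genes above and 8.69% below. Medians of the other lists outside the members, cell markers aside, ran from -0.08 to 0.54. With a library left out, Bhlhe40 was called in 5 and Ugt1a1 in 3 of 8 fits, neither without water replicate 2, 3 or 4, and Fgg in 5 of 6, not without water replicate 3. Por, Nr1i2 and Nr1i3 did not pass in the kidney, and Nr1i3 was at 1.88 CPM or less in every kidney library.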

How the data were processed

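PolyA RNA-seq counts of 14 liver and 14 kidney libraries were used. The authors used STAR for alignment and HTSeq-count (strict intersection, no strand) for counting per gene, and deposited the whole-number counts without normalization. Their genome build could not be matched to a reference by name. Of 54446 identifiers, 53229 matched GENCODE M21 with version, 1180 without and 37 not at all. Symbols and exon lengths came from it. Rows naming no gene were left out (no feature 3.27% to 12.77%, ambiguous 1.76% to 5.10%, not unique 10.06% to 19.95% of each library).

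In R 4.3.3 with edgeR 4.0.16, each comparison used the libraries of 1 organ and schedule: filterByExpr, TMM scaling, robust dispersions, quasi-likelihood test, Benjamini-Hochberg adjustment over all tested genes, threshold 0.05. The schedule difference was an interaction over an organ's 14 libraries. SE was the fold change in log2 units over the root of the F statistic. Alternatives were DESeq2 1.42.0, its size factors in edgeR, a replicate block, no count filter, a minimum of 10 counts per library, all 14 libraries in one fit, a stricter call (adjusted p under 0.01, fold change above 2 or below 0.5), and each library left out. The steps were tested on simulated counts. Reads carry no molecular identifiers, so depth limits counting error only.

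The members and gene lists were chosen with earlier results of these data known. Values in every library are given for members past the threshold (in that organ), the highest member per kilobase of each subfamily in an organ (in that organ), and Cyp2b10, Cyp3a11 and Cyp2e1 (in both). Of each list at most 4 genes past the threshold are named, by smallest p, with Por, Nr1i2 and Nr1i3. Promoter sequences are from RefSeq (GRCm38.p6), transcripts from GENCODE M21.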

Additional observations from a re-analysis of the deposited data

Results flagged for a closer look

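Of the members given library by library, 3 of 62 groups of 4 libraries held 1 library separated from the rest by a gap past Dixon's critical share of the group's range, where chance gives about 5%. These were Cyp2f2 in NMN liver at 1340 mg/kg/d, with 724 CPM in replicate 4, the library with the most reads outside exons, Cyp2a4 in NMN kidney at 1340 mg/kg/d, with 313 CPM in replicate 3, and Cyp2b10 in NMN kidney at 1340 mg/kg/d, with 0.561 CPM in replicate 4 and no read in the other 3.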

How the results depend on the processing

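The groups were small, and calls of single members near the threshold depended on single libraries. The part of depth was not tested. In the liver at 2680 mg/kg/d, leaving out each library gave 1 to 5 called members (7 with all libraries) and 211 to 1308 called genes (883). The lowest count of members came without water replicate 2, where only Cyp3a11 was called. Without NMN replicate 1, the library with kidney transcripts, 5 members were called, namely Cyp2d22, Cyp2d40, Cyp2f2, Cyp2u1 and Cyp3a11. The stricter threshold kept Cyp3a11 alone (1 member, 135 genes), no filter on low counts gave 12 members and 1785 genes, and DESeq2 1448 genes and 9 members, the 7 with Cyp2a22 and Cyp2u1. DESeq2 size factors and a fit of all 14 libraries each lost Cyp2f2 only (6 members).

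At 1340 mg/kg/d edgeR called 0 members and 2 genes in liver, where DESeq2 gave 2 members and 74 genes, no filter 1 member (Cyp2j9) and 44 genes, the stricter threshold 0 genes and the fit of all 14 libraries 6 genes. In the kidney at 1340 mg/kg/d (18 genes), the stricter threshold gave 2, DESeq2 159 and no filter 269 genes. In the kidney at 2680 mg/kg/d (0 members, 61 genes), the stricter threshold gave 3 genes, DESeq2 1 member (Cyp2a4) and 236 genes, no filter 3 members (Cyp2a4, Cyp2d12 and Cyp2s1) and 514 genes, and the fit of all 14 libraries 35 genes. For the difference between schedules DESeq2 gave 1 member (Cyp2d40) and 99 genes in liver (10 in edgeR) and 10 genes in kidney (1 in edgeR), no filter 71 genes in liver and 106 genes and 1 member (Cyp2a5) in kidney, and at least 10 counts in every library 0 genes in kidney. Leaving out each library gave 0 to 18 genes in liver and 5 to 67 in kidney at 1340 mg/kg/d, 3 to 191 in kidney at 2680 mg/kg/d, and 7 to 25 in liver and 0 to 1 in kidney for the difference, with 0 members each time. The causes were not tested.

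Some log2 fold changes that did not pass the threshold changed sign with the library left out. They ran from -0.13 to 0.18 for Cyp3a11 in liver at 1340 mg/kg/d, from -1.04 to 0.23 for Cyp2b10 in liver at 2680 mg/kg/d, from -0.20 to 0.0153 for Cyp2e1 in kidney at 1340 mg/kg/d, and in kidney at 2680 mg/kg/d from -0.41 to 0.51 for Nr1i3 and from -0.18 to 0.39 for Cyp2b10.

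Replicate numbers are shared between the groups, but same-numbered libraries did not deviate together in every pair, with correlations from -0.06 to 0.20 in liver and -0.13 to 0.21 in kidney at 1340 mg/kg/d, and from 0.06 to 0.24 in liver and -0.03 to 0.04 in kidney at 2680 mg/kg/d. In liver at 2680 mg/kg/d each library correlated best with its own number, a hint from the data and not from the design. The replicate block gave 1 member (Cyp2b9) and 16 genes in liver at 1340 mg/kg/d, 75 and 92 genes in kidney at 1340 and 2680 mg/kg/d, and 2 genes for the kidney difference. In liver at 2680 mg/kg/d it gave 7 members, 5 of them shared, without Cyp2d40 and Cyp2f2 and with Cyp2a5 and Cyp2u1. These 7 stand without a share over all genes, so only their names are compared.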
